A study of Homo sapiens with 12 samples.

Results

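The genes for the mitochondrial ribosomal proteins were examined in U2932, SUDHL-4, TMD8 and WSU-DLCL2, established lines of diffuse large B-cell lymphoma, a tumour of mature B cells (4 lines in all). Members were taken by symbol, as every entry named MRPL or MRPS followed by a number and at most 1 letter. This gave 77 genes, 48 with an MRPL symbol and 29 with an MRPS symbol, out of 22528 genes tested, and none was left out for low values. Each line received lenalidomide, avadomide (CC-122) or DMSO, the solvent control, for 18 hours, so that the 12 libraries hold 1 per line and treatment. Lenalidomide and avadomide are cereblon modulators, small molecules that turn the ubiquitin ligase receptor cereblon against the lymphoid transcription factors Ikaros and Aiolos. The labels name no dose. All 3 treatments were given to the same 4 lines, each a tumour line grown without other cell types, and the labels list no second culture of a line under any treatment.

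The mitochondrial ribosome, or mitoribosome, sits in the mitochondrial matrix and translates the few proteins encoded by mitochondrial DNA, all of them subunits of the respiratory chain or the ATP synthase. Its ribosomal RNAs come from mitochondrial DNA, whereas its proteins are made from nuclear genes in the cytosol and imported. The large subunit holds the peptidyl transferase centre, where amino acids are joined, and the small subunit decodes the messenger RNA. Some of the proteins descend from bacterial ribosomal proteins and others exist only in mitochondria. The symbols do not always give the subunit. MRPS30 and MRPS18A encode large subunit proteins (mL65 and mL66), and the MRPS36 product is a part of the 2-oxoglutarate dehydrogenase complex rather than of the ribosome. By structure the members thus comprise 50 large subunit genes, 26 small subunit genes and MRPS36. MRPL58, a large subunit protein, is listed in the table as ICT1 and is therefore not a member.

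The deposited values are log2 values per gene and library, and sequencing depth is unknown. The 6 B cell markers MS4A1, CD79A, CD79B, PAX5, CD22 and EBF1 were all tested, and their summed level ran from 18.0 to 18.3 on the log2 scale with DMSO and from 17.9 to 18.4 with avadomide. With avadomide 1 of the 6, CD22, fell (-0.28; limma adjusted p = 0.015). Some markers of other cells also moved with avadomide, where 11.2% of all tested genes fell and 13.6% rose. The summed level of 7 T and NK cell markers ran from 4.13 to 6.59 with DMSO and from 5.17 to 7.88 with avadomide, CD3D was below a log2 value of 1 in every library, and 1 of 4 tested markers (NKG7) rose. The summed level of 6 myeloid markers ran from 3.94 to 6.71 and from 4.61 to 7.58, and 3 of 6 (LYZ, CD68 and FCN1) rose. That of 8 stromal and epithelial markers ran from 9.48 to 11.9 and from 10.4 to 11.8, with 2 of 7 tested (COL1A1 and PECAM1) higher and DCN lower. The part of these changes in the results below was not tested. Bulk values cannot separate fewer cells that express a gene from less RNA of it per cell.

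After avadomide the mitoribosomal protein genes were broadly lower, each by a small amount. Of the 77 members, 34 fell against DMSO (44.2%), where 11.2% of all tested genes fell, and 1, MRPL30, rose (1.3%, against 13.6% of all tested genes). The call is a limma test over all tested genes with cell line as a factor, at a Benjamini-Hochberg adjusted p under 0.05. The 34 falls ran from 7.19% for MRPL52 to 18.6% for MRPS31 on the linear scale, and 33 of the 34 were seen in 4 of 4 lines, the exception being MRPL21, which was lower in 3. The median change of all 77 members was -0.12 (log2), a fall of 7.94%, while the median of all tested genes was 0.01. Most members are moderately to highly expressed (71 of 77 have a mean log2 value from 9 to 14), and among the 8454 tested genes in that range 20.2% fell and 17.9% rose. The number of falls was 16 when U2932 or TMD8 was left out, 10 when WSU-DLCL2 was and 36 when SUDHL-4 was. It was 6 when only the DMSO and avadomide libraries were fitted. All tested genes also had a lower share of falls than 11.2% in these fits. The shares were 7.34% without U2932, 8.69% without TMD8, 5.08% without WSU-DLCL2, 9.02% without SUDHL-4 and 2.12% with only the DMSO and avadomide libraries. MRPS31, MRPL16, MRPS34, MRPS26, MRPS2 and MRPL4 passed under each of these fits and under every scaling and filter tried. In a fit that ignored the line 0 members passed, and so did 0 of all 22528 tested genes.

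Counted without a test, 40 of 77 members (51.9%) were lower with avadomide in every line, which held for 16.8% of all tested genes and 26.0% of those in the same range of levels. Only 2 members, MRPL30 and MRPS14, were higher in every line (2.6%, against 19.7% of all tested genes). The size of the group's fall differed between lines. U2932 had 71 of 77 members lower (47.3% of all tested genes were) and a median change of -0.16. TMD8 had 71 lower (48.5% of all tested genes) and a median of -0.15, and WSU-DLCL2 had 65 lower (46.5%) and a median of -0.13. SUDHL-4 had only 44 lower (50.4%) and a median of -0.04, and for 54 of the 77 members SUDHL-4 was the line with the least negative change. With 1 library per line and treatment, a difference between lines cannot be tested.

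**Figure D1:**
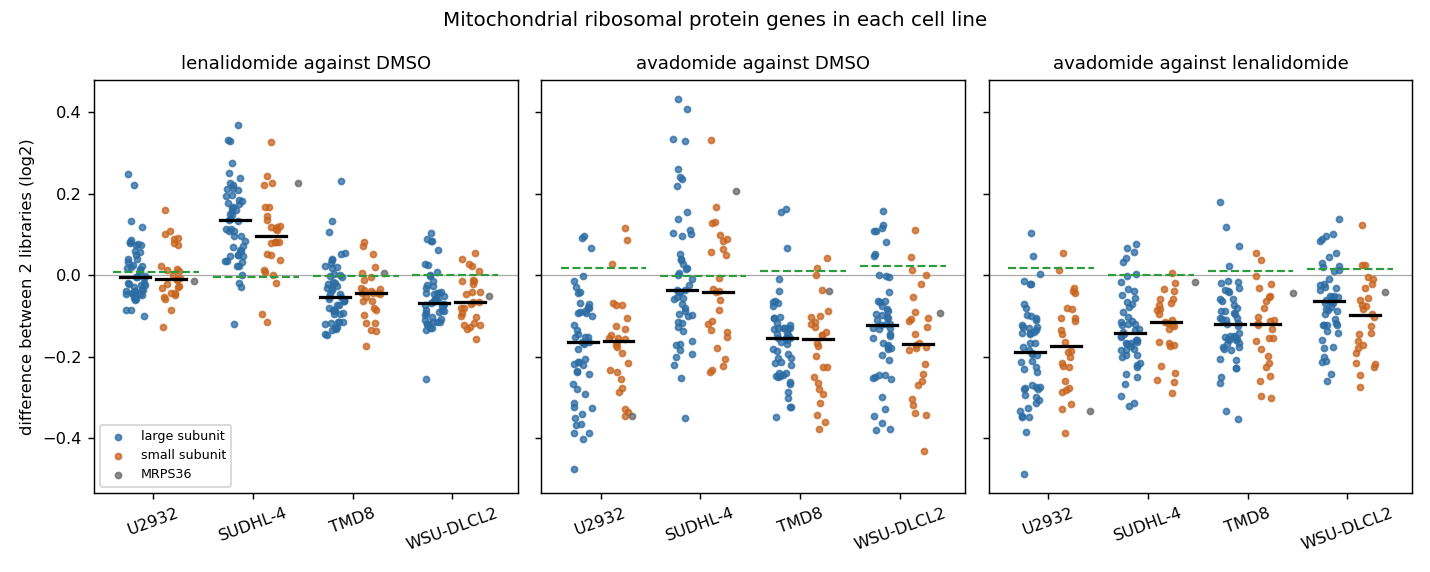
Difference between 2 libraries of the same line (log2, vertical axis) for each of the 77 members, by line and comparison, with large subunit genes in blue, small subunit genes in orange and MRPS36 in grey. Black bars are subunit medians and green dashed lines the median of all tested genes. Against DMSO the avadomide medians lie below 0 in all 4 lines and nearest to 0 in SUDHL-4, where lenalidomide moved most members up.

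The 4 largest falls after avadomide were in 3 small subunit genes, MRPS31, MRPS34 and MRPS26, and the large subunit gene MRPL16. MRPS31 (chr13:40729135-40771173, minus strand) encodes mS31, a protein found only in mitochondrial ribosomes. Its log2 values were 12.59, 13.11, 12.14 and 13.56 with DMSO in U2932, SUDHL-4, TMD8 and WSU-DLCL2, and 12.26, 12.98, 11.85 and 13.13 with avadomide. The lines differ more from each other (SD 0.62, n = 4) than the treatments do, so the groups overlap, yet every line was lower with avadomide. The fitted change was -0.30 (SE 0.05), with a limma adjusted p of 0.00258. Copies of part of this gene, MRPS31P4 and MRPS31P5, are listed at mean log2 values of 7.09 and 7.07 and did not pass the test, and how reads were shared among the copies is not stated in the labels.

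MRPS34 (chr16:1771890-1773155, minus strand) encodes mS34, needed for a stable small subunit. Its values were 13.16, 13.28, 12.80 and 13.03 with DMSO and 12.93, 13.04, 12.42 and 12.75 with avadomide, in the same order of lines. All 4 lines were lower, by 0.23 to 0.38, and this was the member with the smallest p. The change was -0.28 (SE 0.04; limma adjusted p = 0.00121). MRPS26 (chr20:3045945-3048254, plus strand) encodes mS26, another protein of mitochondria only. It read 11.68, 11.94, 11.67 and 11.87 with DMSO and 11.42, 11.76, 11.32 and 11.55 with avadomide, lower in all 4 lines, a change of -0.27 (SE 0.04; limma adjusted p = 0.00165). MRPL16 (chr11:59806135-59810872, minus strand) encodes uL16m, which contacts transfer RNA near the peptidyl transferase centre. Its values were 12.86, 13.70, 12.85 and 12.94 with DMSO and 12.69, 13.35, 12.61 and 12.58 with avadomide. It too was lower in every line, by -0.28 on average (SE 0.04; limma adjusted p = 0.00211).

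Promoters of 5 members are shown: those of MRPS31, MRPL16 and MRPS34 for the 3 largest falls, that of MRPL30 as the gene that rose, and that of MRPL22, which fell by less (-0.21), for its YY1 motif. The sequences are from RefSeq (GRCh38.p14), 250 bases before to 50 after the start, on the gene's strand, at chr13:40771141-40771440 (minus), chr11:59810729-59811028 (minus), chr16:1773085-1773384 (minus), chr2:99180934-99181233 (plus) and chr5:154940823-154941122 (plus). Capitals mark matches, on either strand, to CCGGAAG, the core bound by ETS factors such as GABPA, to the NRF-1 motif, to CACGTG, the E-box of MYC and other factors, and to AAGATGGC for YY1.
MRPS31: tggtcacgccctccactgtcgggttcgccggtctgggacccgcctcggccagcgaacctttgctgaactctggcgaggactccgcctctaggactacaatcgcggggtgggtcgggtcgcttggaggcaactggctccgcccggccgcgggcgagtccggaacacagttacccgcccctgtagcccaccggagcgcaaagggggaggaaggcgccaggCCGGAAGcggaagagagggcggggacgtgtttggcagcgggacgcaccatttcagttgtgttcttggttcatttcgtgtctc
MRPL16: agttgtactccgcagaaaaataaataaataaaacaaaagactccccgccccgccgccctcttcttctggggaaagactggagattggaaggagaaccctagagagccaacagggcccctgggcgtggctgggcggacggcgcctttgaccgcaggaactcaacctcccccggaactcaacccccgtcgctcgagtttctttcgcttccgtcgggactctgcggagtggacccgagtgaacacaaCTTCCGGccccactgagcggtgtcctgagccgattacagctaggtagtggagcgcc
MRPS34: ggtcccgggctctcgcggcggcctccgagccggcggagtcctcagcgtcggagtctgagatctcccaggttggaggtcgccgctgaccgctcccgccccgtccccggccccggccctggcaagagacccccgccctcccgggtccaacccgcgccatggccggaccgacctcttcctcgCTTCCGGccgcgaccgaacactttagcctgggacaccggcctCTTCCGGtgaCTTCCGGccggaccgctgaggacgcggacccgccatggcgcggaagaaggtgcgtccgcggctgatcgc
MRPL30: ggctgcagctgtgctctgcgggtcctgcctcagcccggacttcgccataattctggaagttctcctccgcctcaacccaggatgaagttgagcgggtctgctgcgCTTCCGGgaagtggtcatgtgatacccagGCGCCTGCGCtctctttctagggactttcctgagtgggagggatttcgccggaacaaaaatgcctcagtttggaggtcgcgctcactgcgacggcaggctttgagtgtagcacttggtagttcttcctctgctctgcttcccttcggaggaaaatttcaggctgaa
MRPL22: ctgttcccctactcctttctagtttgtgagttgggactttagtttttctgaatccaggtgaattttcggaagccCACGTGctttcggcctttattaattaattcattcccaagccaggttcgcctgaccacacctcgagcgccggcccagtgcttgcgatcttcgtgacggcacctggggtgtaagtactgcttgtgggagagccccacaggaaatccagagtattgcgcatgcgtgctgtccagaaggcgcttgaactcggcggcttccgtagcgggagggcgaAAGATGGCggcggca

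The ETS motif occurs at -32 from the start in MRPS31, at -6 in MRPL16, at -71, -29 and -19 in MRPS34 and at -145 in MRPL30. MRPL30 also holds the NRF-1 motif at -116, and MRPL22 the E-box at -176 and the YY1 motif at 35 bases past the start. Among the 68 members with an entry, 29 (42.6%) hold the ETS motif, against 20.7% of 11215 tested genes with an entry and 10.3% of all 35116 windows. The YY1 motif is in 21 of 68 (30.9%), against 5.97% and 2.89%. The last letters of the ETS motif, AAG, can also be the first of the YY1 motif. The NRF-1 motif is in 9 members (13.2%, against 12.4% of tested genes) and the E-box in 9 (13.2%, against 12.4%). Among matched members that fell, 10 of 30 hold the ETS motif and 7 of 30 the YY1 motif. Among the others, 19 of 38 hold the ETS motif and 14 of 38 the YY1 motif. These shares describe letters in a window and were not tested.

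Large and small subunit genes had close median changes with avadomide. Of 50 large subunit genes, 21 fell and 1 rose, with a median change of -0.12, and of 26 small subunit genes 13 fell, with a median of -0.13. Within lines, the large subunit median minus the small subunit median came to -0.0043 for U2932, 0.0045 for SUDHL-4, 0.0016 for TMD8 and 0.0477 for WSU-DLCL2, a median of 0.0031 (SD 0.0238, n = 4). The sign is mixed and none of the 4 differences exceeds 0.0477. Sorting by symbol in place of structure gave a median of -0.0038. Members classed as bacterial homologues gave 24 falls and 1 rise among 46 genes, with a median of -0.13. Those classed as mitochondria-specific gave 10 falls among 30, with a median of -0.11. The second class includes MRPS18A, a paralogue of bacterial S18, so it is not strictly a class by descent.

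**Figure D2:**
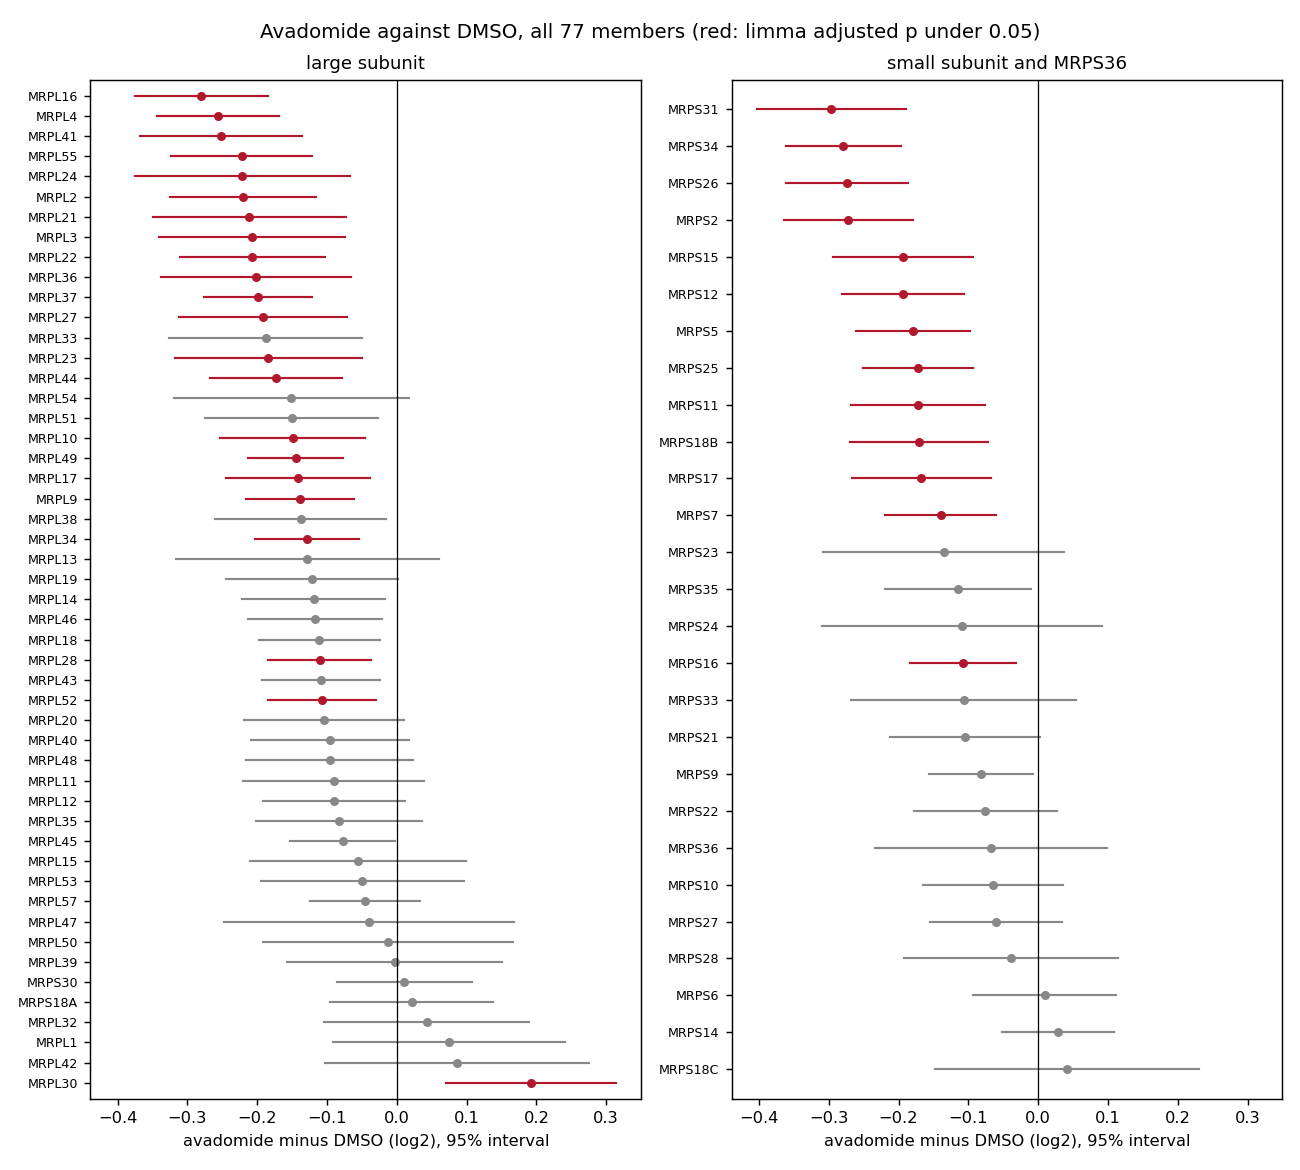
Change with avadomide against DMSO (log2, horizontal axis) and its 95% interval from the limma fit over 4 lines, for each of the 77 members ordered by size, with the large subunit at the left and the small subunit and MRPS36 at the right. Red marks the 35 members past an adjusted p of 0.05, of which 34 lie below 0 and MRPL30 above.

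Within the large subunit, the genes for proteins packed around the peptidyl transferase centre all fell: MRPL2, MRPL3, MRPL4 and MRPL16, 4 of 4, with a median of -0.24. Counts by site, here and below, are to be read against 11.2% of all tested genes that fell. Of those with mean values from 9 to 14, 20.2% fell. Differences between sites were not tested. MRPL4 (chr19:10251901-10260045, plus strand) encodes uL4m, which also lines the tunnel through which the new chain leaves. Its log2 values were 13.08, 14.37, 13.61 and 13.70 with DMSO and 12.93, 14.15, 13.29 and 13.37 with avadomide. Every line was lower, and the change was -0.26 (SE 0.04; limma adjusted p = 0.00212). MRPL2 (chr6:43054029-43059806, minus strand) encodes uL2m, beside the same centre. It differed little between lines, with values of 11.71, 11.82, 11.83 and 11.84 with DMSO, all above the 11.54, 11.64, 11.68 and 11.46 measured with avadomide. The change was -0.22 (SE 0.05; limma adjusted p = 0.00852), and without WSU-DLCL2, the line with the largest fall, the adjusted p was 0.0625. MRPL2 shares exon sequence on the opposite strand with KLC4, and whether reads were counted by strand is not stated in the labels.

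At the polypeptide exit and the membrane side, 4 of 6 genes fell (MRPL17, MRPL22, MRPL23 and MRPL24), while MRPL45 (-0.08) and MRPL47 (-0.04), whose products are at the same face, did not pass. MRPL24 (chr1:156737303-156741590, minus strand) encodes uL24m. It was 11.82, 12.14, 11.96 and 12.57 with DMSO and 11.34, 12.10, 11.84 and 12.32 with avadomide. The fall was uneven, from 0.48 in U2932 to 0.04 in SUDHL-4, with a fitted change of -0.22 (SE 0.07; limma adjusted p = 0.042). The adjusted p was 0.0646 when TMD8 was left out, 0.132 when U2932 was and 0.142 when WSU-DLCL2 was. In the central protuberance, which faces the small subunit, 2 of 7 fell (28.6%). They were MRPL27 (-0.19) and MRPL55 (chr1:228106679-228109312, minus strand), the homologue of bacterial L31. MRPL55 read 11.63, 11.49, 11.88 and 11.40 with DMSO and 11.53, 11.29, 11.63 and 11.05 with avadomide, a change of -0.22 (SE 0.05; limma adjusted p = 0.00719, and 0.0507 without WSU-DLCL2). The other 5, MRPL18, MRPL38, MRPL40, MRPL46 and MRPL48, had estimates from -0.14 to -0.10. In the stalk that receives translation factors, 1 of 5 fell (MRPL10, -0.15). Outside these sites, MRPL41 (chr9:137551199-137552555, plus strand), a gene for a protein of mitochondria only, was 10.75, 11.29, 11.002 and 11.33 with DMSO and 10.41, 11.04, 10.70 and 11.22 with avadomide. It was lower in each line, with a change of -0.25 (SE 0.05; limma adjusted p = 0.00759, and 0.0532 without U2932).

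In the small subunit, 5 of 8 platform and body genes fell (62.5%), namely MRPS11, MRPS12, MRPS15, MRPS16 and MRPS17. Of 6 head genes 1 fell (MRPS7, 16.7%), and 5 had estimates below 0. The shares compare with 11.2% of all tested genes and 20.2% of those with mean values from 9 to 14. A difference between the 2 sites was not tested. MRPS12 (chr19:38930548-38933162, plus strand) encodes uS12m, at the decoding site. Its values were 11.98, 12.35, 13.12 and 12.08 with DMSO and 11.81, 12.21, 12.84 and 11.90 with avadomide, lower in all lines by 0.14 to 0.28, with a change of -0.19 (SE 0.04; limma adjusted p = 0.00674). It overlaps SARS2, a mitochondrial synthetase gene read from the opposite strand, which had a change of -0.11 that did not pass. MRPS2 (chr9:135499984-135504673, plus strand) encodes uS2m, at the junction of head and body. It was 12.50, 12.81, 12.67 and 12.89 with DMSO and 12.34, 12.59, 12.31 and 12.55 with avadomide, lower in every line, with a change of -0.27 (SE 0.04; limma adjusted p = 0.00205). Its opposite-strand neighbour C9orf116, which shares exon sequence with it, also fell (-0.64).

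The 3 human paralogues of bacterial protein S18 did not move alike. MRPS18B, for a small subunit protein (mS40), was 13.46, 13.13, 13.34 and 13.38 with DMSO and 13.38, 12.98, 13.23 and 13.04 with avadomide, a fall of 11.2% (log2 change -0.17, SE 0.04; limma adjusted p = 0.0199, and 0.0587 without SUDHL-4 and 0.108 without WSU-DLCL2). MRPS18A, for a large subunit protein, gave 11.99, 12.15, 12.61 and 12.30 against 12.08, 12.10, 12.77 and 12.18, up in 2 lines and down in 2. Its change was 0.02 (95% interval -0.10 to 0.14; limma adjusted p = 0.81). MRPS18C, the small subunit protein that sits where bacterial S18 does, gave 12.20, 12.18, 12.004 and 12.09 against 11.96, 12.51, 11.97 and 12.20, also up in 2 lines and down in 2. Its change was 0.04 (95% interval -0.15 to 0.23; limma adjusted p = 0.767). Differences between the paralogues were not tested. MRPS30 had a change of 0.01 (95% interval -0.09 to 0.11), lower in 2 lines and higher in 2. MRPS36 was 11.90, 11.85, 11.82 and 12.13 with DMSO and 11.55, 12.06, 11.78 and 12.03 with avadomide, with a change of -0.07 (95% interval -0.23 to 0.10), lower in 3 of 4 lines. With each library centred on its median, the estimates for MRPS18A, MRPS18C and MRPS30 were -0.0885, -0.0683 and -0.0991. With a trend on GC content removed they were -0.0271, -0.0919 and -0.23, and MRPS30 (limma adjusted p = 0.00306) and MRPS36 (-0.28; limma adjusted p = 0.00639) then passed as lower.

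MRPL30 (chr2:99181079-99197626, plus strand), for the homologue of bacterial L30, was the member that rose with avadomide. Its values were 12.27, 12.09, 12.05 and 12.17 with DMSO and 12.36, 12.50, 12.20 and 12.28 with avadomide. Every line was higher, by 0.09 to 0.15 in 3 lines and by 0.41 in SUDHL-4, and the change was 0.19 (SE 0.05; limma adjusted p = 0.0287). The limma adjusted p was 0.103 without SUDHL-4 (change 0.12), 0.0659 without TMD8, 0.0713 without WSU-DLCL2 and 0.444 with median centring (change 0.0828). Another 8 members had estimates above 0 (MRPS6, MRPS30, MRPS18A, MRPS14, MRPS18C, MRPL32, MRPL1 and MRPL42), none past the threshold. In MRPL42, MRPL1 and MRPS18C the positive estimate came with a rise in SUDHL-4 of 0.43, 0.33 and 0.33.

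**Figure D3:**
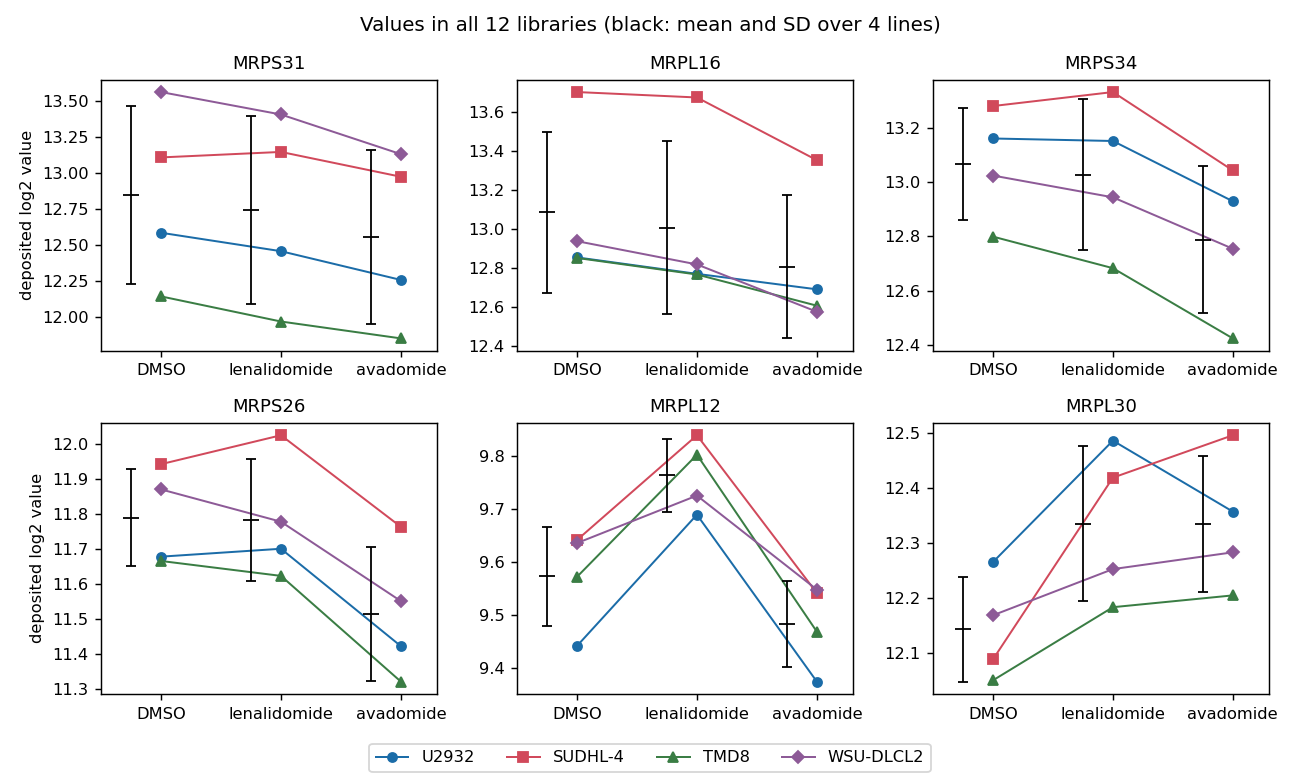
Deposited log2 values (vertical axis, range differs between panels) of 6 members in all 12 libraries, with 1 colour and marker per line joined across treatments and the mean and SD over 4 lines in black. MRPS31, MRPL16, MRPS34 and MRPS26 are lowest with avadomide in every line, MRPL12 is highest with lenalidomide in every line, and MRPL30 is lowest with DMSO in every line.

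GC content of the transcript moved with the avadomide change. Over the 77 members, with GC content from 33.5% to 71.9%, Spearman's rho between change and GC content was -0.537, meaning larger falls in GC-rich members. The points share the same libraries. Over tested genes with a known GC content the value was -0.22. Line by line it was -0.682 for SUDHL-4, -0.506 for WSU-DLCL2, -0.275 for TMD8 and 0.128 for U2932. The members that fell had a median GC content of 51.7% and the others 43.3%. Once a trend on GC content and length was removed from every library, rho over the members was -0.0201. The removal takes out such a relation by design, so a value near 0 follows largely from it. In the fit with the trend removed, 52 of 77 members were lower and the median change was -0.20. Of the members called in the values as deposited, MRPL28 (limma adjusted p = 0.0578), MRPL36 (0.0613) and MRPL30 (0.11; limma adjusted p = 0.143) then missed the threshold. GC content and length were known for 77 of 77 members and for 78.0% of tested genes.

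That removal also moves the scale of all genes, as does centring each library on its median. The median of all tested genes went from 0.01 to -0.0991 with median centring. Over the 17577 tested genes with known GC content and length, it went from 0.0002 to -0.0822 with the trend removed. Taken relative to the median of all tested genes, the members' median was -0.13 as deposited, -0.0873 after quantile normalization and -0.13 after median centring. Relative to the 17577 genes, it was -0.1195 without removal and -0.1193 with the trend removed. The members' median was below that of all genes under each of these scalings. The numbers of members that fell were 42 after quantile normalization and 49 after median centring, while all genes then split into 16.2% lower and 11.3% higher, and into 21.4% lower and 8.35% higher. With the trend removed they split into 25.6% lower and 9.8% higher.

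**Figure D4:**
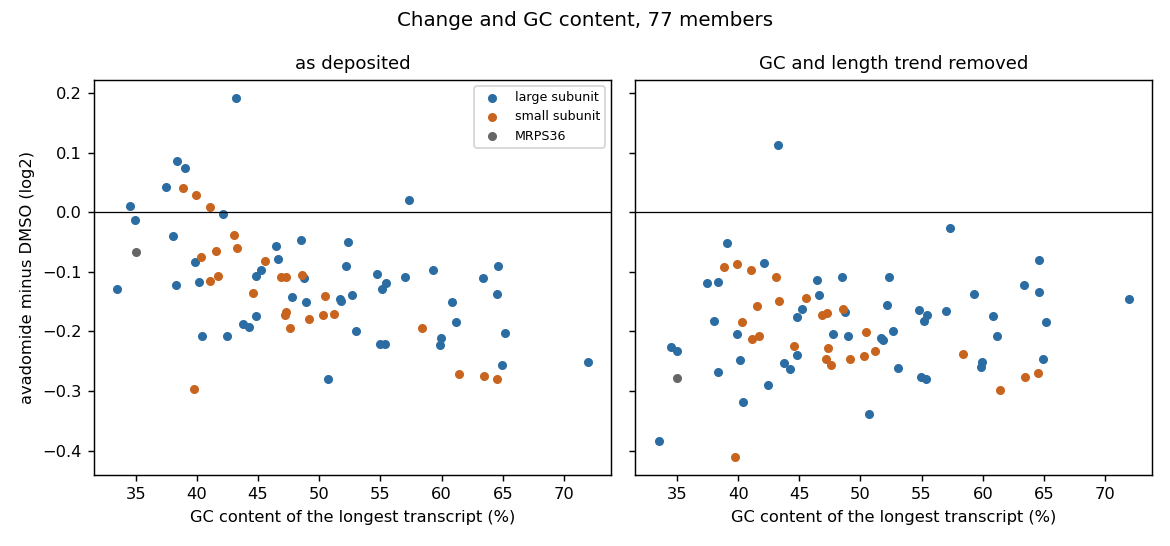
Change with avadomide against DMSO (log2, vertical axis) and GC content of the longest transcript (percent, horizontal axis) for the 77 members, as deposited at the left and with a trend on GC content and length removed from every library at the right. The slope at the left is absent at the right, which follows largely from the removal itself. At the right 76 of 77 members lie below 0.

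Lenalidomide did not change any member past the threshold. In the same limma fit 0 of 77 members were called, where 0.00888% of all tested genes fell and 0.226% rose, and 3 members and 2922 of all genes had an unadjusted p under 0.05. The median change of the members was -0.0013. Lines differed in direction: SUDHL-4 had 7 of 77 members lower (50.6% of all tested genes were), with a median of 0.11, while U2932 had 43 lower (48.1%), TMD8 58 (50.7%) and WSU-DLCL2 63 (49.3%), with medians of -0.01, -0.05 and -0.07. SUDHL-4 was the line with the highest change for 68 members. The comparisons of both compounds use the same DMSO libraries. The large minus small subunit difference was 0.0038, 0.0375, -0.0089 and -0.0017 in U2932, SUDHL-4, TMD8 and WSU-DLCL2.

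The 5 members with the smallest p under lenalidomide were MRPL12, MRPL30, MRPL34, MRPS31 and MRPL57. MRPL12 (chr17:81703357-81707526, plus strand) encodes bL12m of the factor-binding stalk. It was 9.44, 9.64, 9.57 and 9.64 with DMSO and 9.69, 9.84, 9.80 and 9.73 with lenalidomide. The lowest lenalidomide value is above the highest DMSO value, so the groups do not overlap, and the change was 0.19 (SE 0.05) with a limma adjusted p of 0.117, which misses the threshold. MRPL30 read 12.49, 12.42, 12.18 and 12.25 with lenalidomide, higher than DMSO in every line, with a change of 0.19 (SE 0.05; limma adjusted p = 0.173). MRPL34, the homologue of bacterial L34, had a change of 0.09 (adjusted p = 0.307 by limma), MRPS31 of -0.11 (0.393) and MRPL57, for a protein of mitochondria only, of 0.07 (0.415).

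Set directly against lenalidomide, avadomide gave lower levels of the members in all lines, SUDHL-4 included. Of 77 members, U2932 had 72 lower (46.9% of all tested genes were), SUDHL-4 70 (49.8%), TMD8 71 (48.5%) and WSU-DLCL2 62 (47.1%), with medians of -0.19, -0.12, -0.12 and -0.07. Of the 77, 57 were lower in every line (74.0%, against 15.1% of all tested genes) and 0 were higher in every line (16.7% of all tested genes). In the limma fit 13 members were lower (16.9%, where 2.22% of all tested genes were lower) and 0 were higher (2.51% of all tested genes). At an unadjusted p under 0.05 the numbers were 45 lower and 0 higher, against 2305 lower and 2684 higher of all 22528 tested genes. The 13 are MRPS34, MRPL4, MRPL37, MRPS15, MRPS2, MRPS26, MRPS12, MRPL34, MRPL55, MRPL16, MRPL41, MRPS17 and MRPL12. Without any 1 line this number dropped to between 0 (without U2932, TMD8 or WSU-DLCL2) and 2 (without SUDHL-4), and the compounds' doses are not known to match. Few genes of any kind were called in those fits. Of all tested genes, 0 were lower without U2932, 19 without TMD8, 4 without WSU-DLCL2 and 129 without SUDHL-4, against 500 with all lines.

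MRPS26 had the smallest p in this comparison, with 11.70, 12.02, 11.62 and 11.78 for lenalidomide and 11.42, 11.76, 11.32 and 11.55 for avadomide. The difference was -0.27 (SE 0.04; limma adjusted p = 0.0146), and all lines fell by 0.23 to 0.30. MRPS34 differed by -0.24 (SE 0.04; limma adjusted p = 0.0164), MRPL34 by -0.22 (SE 0.03; limma adjusted p = 0.0167) and MRPL4 by -0.25 (SE 0.04; limma adjusted p = 0.0177). MRPL34 shares exon sequence with ABHD8 on the opposite strand. MRPL12 was 9.37, 9.54, 9.47 and 9.55 with avadomide, below the lenalidomide values in every line. Its difference between the compounds was -0.28 (SE 0.05; limma adjusted p = 0.018), of which a change of -0.09 (limma adjusted p = 0.184) was on the avadomide side and 0.19 on the lenalidomide side. In the values as deposited, MRPL12 was the member called against lenalidomide and not against DMSO. With median centring it also passed as lower against DMSO (-0.199, limma adjusted p = 0.0249). The other 12 were called in both, which is 92.3% of the 13 and 35.3% of the 34.

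Genes for other parts of the mitoribosome and its support also fell under avadomide, as did some RNAs made from mitochondrial DNA, though not always in the same lines as the members. Among 6 mitoribosomal proteins without an MRP symbol, 4 fell (66.7%), namely DAP3, ICT1, PTCD3 and AURKAIP1, with a list median of -0.17. The shares of each list that fell are to be read against 11.2% of all tested genes and 20.2% of those with mean values from 9 to 14. DAP3, the GTP-binding protein mS29 of the small subunit, was 13.87, 13.81, 13.94 and 13.92 with DMSO and 13.64, 13.68, 13.74 and 13.67 with avadomide. The groups do not overlap, and the change was -0.20 (SE 0.03; limma adjusted p = 0.00344). Among 29 mitoribosome assembly factors 21 fell (72.4%) and none rose, with a median of -0.15. YBEY, an endoribonuclease of small subunit assembly, fell by 23.5% (log2 change -0.39; limma adjusted p = 0.00166), and C1QBP, an abundant matrix protein, by 18.7% (-0.30; limma adjusted p = 0.00104). RBFA, DDX28, MTG1 and DHX30, which mature or process the ribosomal RNA and subunits, had changes of -0.23, -0.22, -0.22 and -0.20.

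Of 15 mitochondrial translation factors 5 fell (33.3%), with a median of -0.12. They include the elongation factors TSFM (-0.26) and TUFM (-0.21) and the recycling factor MRRF (-0.11), whereas the release factor genes MTRF1 (0.06) and MTRF1L (0.13) did not pass. Of 20 mitochondrial aminoacyl-tRNA synthetase and amidotransferase genes 10 fell, with a median of -0.13, the largest falls being in VARS2 (-0.36), LARS2 (-0.22) and FARS2 (-0.21). The ribosomal RNAs did not pass in the values as deposited. MT-RNR1, the small subunit RNA, was 15.45, 15.60, 15.84 and 16.16 with DMSO and 15.30, 15.47, 15.94 and 16.02 with avadomide, lower in 3 of 4 lines (-0.08; limma adjusted p = 0.321, and 0.0427 with median centring). MT-RNR2, the large subunit RNA, was 18.77, 18.94, 20.10 and 19.42 with DMSO and 18.75, 19.00, 20.14 and 19.38 with avadomide, lower in 2 of 4 (0.01, 95% interval -0.06 to 0.08; limma adjusted p = 0.844). Of the 13 mitochondrially encoded mRNAs 4 fell (30.8%), namely MT-ATP8, MT-CYB, MT-CO3 and MT-CO2, with changes of -0.17 to -0.13. Unlike the members, these mRNAs had their median nearest to 0 in U2932 (-0.01, 8 of 13 lower). The medians were -0.12 in SUDHL-4 (12 lower), -0.08 in TMD8 (10 lower) and -0.19 in WSU-DLCL2 (13 lower).

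In the machinery of mitochondrial DNA transcription, 1 of 5 genes fell (TFB2M, -0.20), while TFAM had an estimate of 0.12 and POLRMT, the polymerase, one of -0.11. Among 8 regulators known to act on nuclear genes for mitochondrial proteins, 2 fell. As shares, 1 of 5 and 2 of 8 are near the 20.2% that fell among genes with mean values from 9 to 14. MYC was 11.24, 14.96, 14.48 and 14.73 with DMSO and 10.87, 14.81, 14.03 and 14.22 with avadomide, lower in each line and least so in SUDHL-4, with a change of -0.37 (SE 0.05; limma adjusted p = 0.00165). PPRC1, a coactivator of the PGC-1 family, had a change of -0.17 (limma adjusted p = 0.026). GABPA (0.11), GABPB1 (0.02), NRF1 (-0.08), YY1 (0.03), ESRRA (-0.08) and PPARGC1B (-0.10) did not pass. Whether the change in MYC or any other regulator bears on the members was not tested. Under lenalidomide no gene of any of these lists passed.

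**Figure D5:**
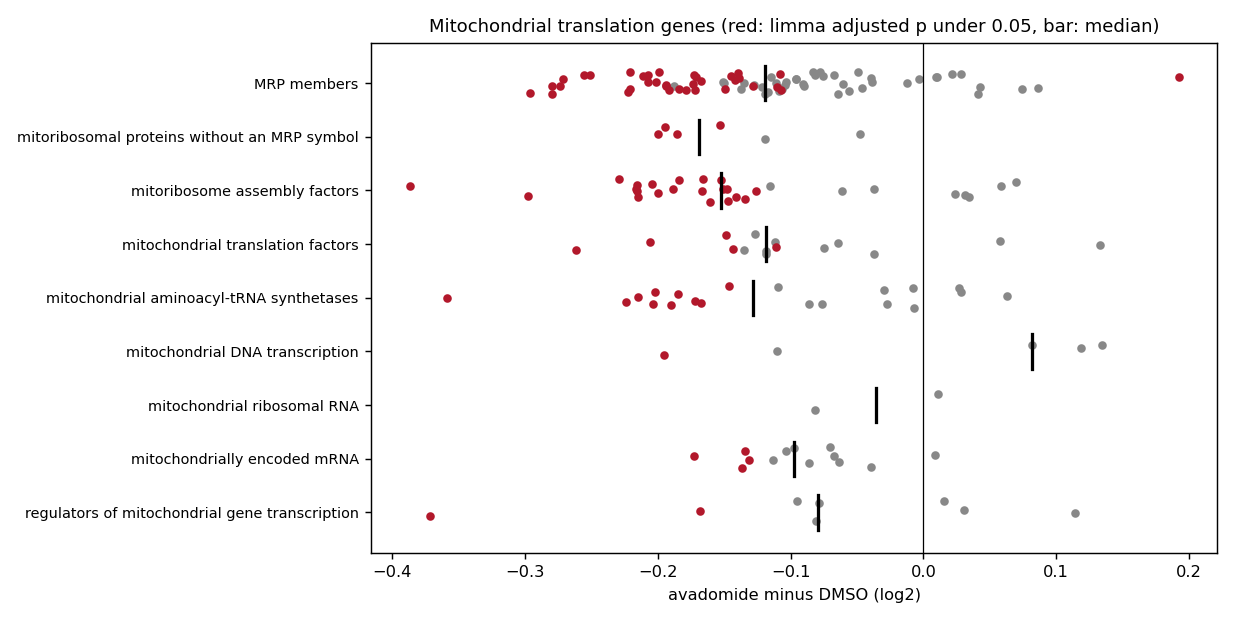
Change with avadomide against DMSO (log2, horizontal axis) of the MRP genes and of 8 lists of mitochondrial translation and transcription genes, 1 point per gene, in red where the limma adjusted p is under 0.05, with list medians as bars. The assembly factors have 21 of 29 genes lower, and both mitochondrial ribosomal RNAs are grey, MT-RNR1 at -0.08 and MT-RNR2 at 0.01.

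Without a compound, the members were held within a narrow range across the lines. With DMSO, the median member had a range of 0.50 (log2) over the 4 lines, against 1.27 for all tested genes and 0.771 for those with mean values from 9 to 14. WSU-DLCL2 was the highest line for 29 members, and U2932 the lowest for 31. Just 9 members had a range above 1. The widest was MRPS21, for the homologue of bacterial S21, read at 15.49 for U2932, 12.51 for SUDHL-4, 13.02 for TMD8 and 13.36 for WSU-DLCL2, a range of 2.98. U2932 read 15.46 with lenalidomide and 15.28 with avadomide. It was followed by MRPS31 with a range of 1.42, MRPL4 with 1.30 and MRPL54, a stalk-base protein, with 1.26.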

How the data were processed

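RNA was sequenced in 12 libraries, 4 lines by 3 treatments. The authors deposited 1 table of log2 values per gene symbol (58684 entries, from -2.41 to 20.1). The submitters' processing notes name STAR, Salmon, MACS and genome build hg38 without versions, and neither their normalization nor the exact transform is stated in the labels. No pseudocount or count model was used. Depth is unknown, so no counting interval is given.

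Tests covered the 22528 genes that reached a log2 value of 1 in 4 or more libraries, after 28 symbols turned into dates were left out. One model with treatment and line was fitted to all 12 libraries with limma 3.58.1 (R 4.3.3), using an intensity trend, two-sided tests and Benjamini-Hochberg adjustment over all tested genes. The fit has 6 residual and 9.62 total degrees of freedom, and SEs are the fit's. Line is the pair, since libraries of a line come from the same cells: deviations from treatment means correlated at 0.918 to 0.977 within lines and at -0.589 to 0.199 between them. The p-values measure the spread over these 4 lines, which may be partly technical.

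Members, gene lists, sites and named genes were chosen with earlier results of these data known. Named members are the 10 largest rises and falls per compound, the 5 smallest p where fewer than 5 passed and for avadomide against lenalidomide, and a fixed set (MRPL12, MRPS12, MRPS18A, MRPS18B, MRPS18C, MRPS30, MRPS36, DAP3, MT-RNR1 and MT-RNR2); a few others were named for their range or site after their values were seen. Gene positions, GC content and length are from GENCODE release 29 (GRCh38). Exon overlap with another tested gene was found for 25 members, in 21 of them on the opposite strand, and a tested pseudogene or read-through entry for 6. Of the 47 with neither, 20 fell with avadomide. The fit was tested on simulated data, and a gene that did not pass is not shown to be unchanged. Alternatives tried were quantile normalization, median centring, no filter, a minimum of 5, fitting only the libraries compared, no intensity trend, no line term, leaving out each line, and removing GC and length trends.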

Additional observations from a re-analysis of the deposited data

Results flagged for a closer look

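In each group of 4 lines, the gap of the most distant line to its nearest neighbour was compared with Dixon's 95% critical value. Of 78 groups examined, 8 passed, and chance alone passes about 1 in 20. Against DMSO, avadomide changed MRPL2 by -0.38 in WSU-DLCL2, well below the other lines, and MT-RNR1 by 0.10 in TMD8, the only line where this ribosomal RNA was higher. The median change of the small subunit genes in SUDHL-4 was -0.0406, nearer to 0 than in the other lines. Between avadomide and lenalidomide, MRPL24 differed by -0.49 and MRPS36 by -0.33 in U2932, both lower than elsewhere. In the same comparison MRPS2 differed by -0.0794 in U2932, MRPL34 by -0.18 in WSU-DLCL2 and MRPS12 by -0.14 in WSU-DLCL2, each nearer to 0 than in the other 3 lines. No difference between lines could be tested, since each line has 1 library per treatment.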

How the results depend on the processing

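The members' median stayed negative for avadomide against DMSO under each alternative. MRPS30 went from 0.01 and not called to -0.23 and called lower, with GC and length trends removed, while MRPS18A, MRPS18C and MT-RNR2 changed sign without being called. Of 34 members lower with avadomide against DMSO, the number became 6 with only the libraries compared, 18 with no intensity trend, 52 with GC and length trends removed (35 for the same genes without removal) and 10 to 36 when 1 line was left out (16 when U2932 or TMD8 was dropped, 36 when SUDHL-4 was and 10 when WSU-DLCL2 was). The 1 member higher, MRPL30, became 0 under median centring, no filter, only the libraries compared, no intensity trend, GC and length trends removed, and 0 to 1 with a line left out. The median change moved from -0.12 to -0.23 under median centring and -0.20 with the trends removed. The 13 members lower against lenalidomide became 30 under median centring, 7 with no filter, 0 with no intensity trend, 32 with the trends removed and 0 to 2 with a line left out. In the same order, 6.02%, 0.282%, 0.0133%, 6.75% and 0.0% to 0.585% of all tested genes were lower. Without line as the replicate block, 0 members were called in any comparison, and 0 of all tested genes were. For avadomide against DMSO, 1 member and 514 of all tested genes then had an unadjusted p under 0.05. Lenalidomide against DMSO gave 0 members under each alternative run. The cause of these shifts was not tested. Some of the alternatives also use fewer libraries or genes. With depth unknown, the number of lines limits precision.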
